A study of Mus musculus with 12 samples.

Results

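The genes described here are 44 genes of DNA replication and mitosis, taken as a named list and read in whole heart tissue from mice. Of the 44, 38 lay on a probe set that carries their symbol alone, and these were tested among 26989 genes. Mcm7 and Foxm1 lay on probe sets that carry a second symbol (for Mcm7 those of the microRNAs within its locus) and were read apart. Ccnb1, Kif11, Kif20a and Ndc80 were not found on a probe set with a symbol of theirs and were not analysed here. The hearts came from male C57BL/6J mice aged 10 weeks that were wild type or lacked ADAM12, a membrane metalloprotease that sheds growth factors from the cell surface. Surgery, 2 weeks earlier, was a sham operation or TAC (transverse aortic constriction), in which a band around the aortic arch loads the left ventricle with pressure. The 4 groups were wild type sham, wild type TAC, knockout sham and knockout TAC, each with 3 hearts on 1 Affymetrix Clariom D array each, 12 arrays in all. Adam12 was the only gene that the labels name as altered, and they do not say which part of it was deleted or how.

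The probe set of Adam12, which also carries 5830403F22Rik, was dim. It read 4.54, 4.46 and 4.61 on the wild type sham arrays, 4.56, 4.73 and 4.80 after TAC, 4.33, 4.40 and 4.32 in knockout sham hearts and 4.25, 4.40 and 4.36 in knockout TAC hearts (log2 signal). The highest knockout array was below the lowest wild type array, and because of the shared probe set this is only a weak check of the labels. Array medians ran from 5.06 to 5.19, and the median of the background probe sets from 2.96 to 3.17. The brightest background probe set of each array read 5.64 to 6.81. The mean log2 signal over 9 cardiomyocyte genes, such as the sarcomere genes Myh6 and Tnnt2, was 16.57 to 16.69 on the 12 arrays, so the genes that define the labelled tissue were bright on each.

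Cells that divide pass from G1 into S phase, when E2F transcription factors turn on the cyclins E and the enzymes and helicase subunits of replication, and then into G2 and mitosis. There the cyclin A2 and cyclin B partners of Cdk1, the kinases Plk1 and Aurka, the kinetochore and the spindle carry the chromosomes apart, and many of these genes are held off in resting cells by the DREAM complex and switched on by MuvB with B-Myb and Foxm1. Adult cardiomyocytes rarely divide, while fibroblasts, macrophages and endothelial cells of the heart can enter the cycle after pressure overload. In a sample of whole heart, fewer cycling cells and less RNA per cycling cell cannot be told apart, and neither can the cell type the RNA came from.

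The mean log2 signal of the members over all arrays ran from 3.76 to 9.33, with a median of 5.22 against 5.41 over all genes tested, and 23 of 38 lay below that median. The members' median of 5.22 was below the brightest background probe set of every array (5.64 to 6.81), though above the background medians. Probe sets differ in response, so these signals do not order the genes by abundance.

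The promoters of the members share short sequence words, and 6 are shown to let the words be seen beside the genes that carry them. Ccnb2, Cenpe, Anln and Tyms had the smallest p for TAC in knockout hearts in their role among the members with a RefSeq promoter entry, and Mcm6 and Top2a were chosen after their values were seen because they hold many words. Each line gives 250 bases before and 50 after the start of the gene on its own strand, in RefSeq build GRCm38.p6. Capitals mark the words searched on both strands: the cell cycle homology region CHR (TTTGAA or TTCGAA), which MuvB binds, and the CCAAT box, which NF-Y binds. They also mark 4 words of E2F sites: TTCCCGC is the first word, TTGGCGC is the next, the third is written TTCGCGC, and the last of them is TTGCCGC. Where words overlap, the run of capitals holds both.
Ccnb2, chr9:70421505-70421804, minus strand: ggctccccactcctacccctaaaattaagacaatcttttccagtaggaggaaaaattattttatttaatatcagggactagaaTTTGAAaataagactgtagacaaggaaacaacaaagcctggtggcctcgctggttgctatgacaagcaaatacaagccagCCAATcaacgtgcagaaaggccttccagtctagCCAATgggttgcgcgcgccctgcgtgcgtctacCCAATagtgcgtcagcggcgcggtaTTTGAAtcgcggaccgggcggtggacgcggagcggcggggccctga
Top2a, chr11:99024140-99024439, minus strand: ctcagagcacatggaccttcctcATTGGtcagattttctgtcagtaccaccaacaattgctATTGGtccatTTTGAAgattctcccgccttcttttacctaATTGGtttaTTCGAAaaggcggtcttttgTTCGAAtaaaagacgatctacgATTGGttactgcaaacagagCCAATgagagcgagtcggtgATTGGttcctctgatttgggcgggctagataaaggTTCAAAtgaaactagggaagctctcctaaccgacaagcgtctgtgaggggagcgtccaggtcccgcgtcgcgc
Cenpe, chr3:135212313-135212612, plus strand: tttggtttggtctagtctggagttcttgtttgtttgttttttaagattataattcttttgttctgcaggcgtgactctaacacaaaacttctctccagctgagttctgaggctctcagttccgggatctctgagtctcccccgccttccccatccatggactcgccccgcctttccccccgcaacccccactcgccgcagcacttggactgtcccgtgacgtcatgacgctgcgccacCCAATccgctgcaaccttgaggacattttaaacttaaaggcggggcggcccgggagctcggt
Anln, chr9:22389157-22389456, minus strand: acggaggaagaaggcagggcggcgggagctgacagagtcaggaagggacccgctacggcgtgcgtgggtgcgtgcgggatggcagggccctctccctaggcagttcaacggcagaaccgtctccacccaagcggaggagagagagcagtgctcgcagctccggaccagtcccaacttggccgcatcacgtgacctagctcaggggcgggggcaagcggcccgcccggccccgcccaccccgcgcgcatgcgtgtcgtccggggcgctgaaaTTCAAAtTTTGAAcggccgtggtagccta
Mcm6, chr1:128359656-128359955, minus strand: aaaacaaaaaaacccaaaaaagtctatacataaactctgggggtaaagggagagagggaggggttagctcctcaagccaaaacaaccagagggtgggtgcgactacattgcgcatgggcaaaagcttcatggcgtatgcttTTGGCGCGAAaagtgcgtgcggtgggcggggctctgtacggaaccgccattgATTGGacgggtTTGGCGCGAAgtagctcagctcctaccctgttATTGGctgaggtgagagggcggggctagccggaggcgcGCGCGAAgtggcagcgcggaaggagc
Tyms, chr5:30073576-30073875, minus strand: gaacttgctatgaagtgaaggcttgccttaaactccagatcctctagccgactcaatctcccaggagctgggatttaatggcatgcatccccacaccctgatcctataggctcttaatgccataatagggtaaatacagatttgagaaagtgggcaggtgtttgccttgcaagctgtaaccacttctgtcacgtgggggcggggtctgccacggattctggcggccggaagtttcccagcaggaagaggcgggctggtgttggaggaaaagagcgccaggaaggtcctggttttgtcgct
Ccnb2, which encodes a cyclin that activates Cdk1, held 2 CHR words, 1 of them 4 bases after the start, and 3 CCAAT boxes at 87, 54 and 21 bases before it. Top2a, the topoisomerase that untangles sister chromatids, held 4 CHR words and 6 CCAAT boxes. The promoter of Mcm6, a subunit of the replicative helicase, held 5 E2F words, 4 of them in overlapping pairs at 109 and 106 and at 46 and 43 bases before the start, together with 2 CCAAT boxes. Tyms, the enzyme that makes thymidylate, held no word of the 3 kinds in its window, Cenpe held 1 CCAAT box, and Anln held 2 CHR words after the start.

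Of the 44 members, 37 had a promoter entry, and where a gene had several entries a word in any of them was counted. A CHR word was found in 22 of 37 (59.5%, against 21.7% of 27025 genes with an entry), a CCAAT box in 26 (70.3% against 41.1%) and an E2F word in 9 (24.3% against 10.9%). Both a CHR word and a CCAAT box were found in 19 of 37, or 51.4% against 9.65%. By role, a CHR word was found in 7 of 9 genes of mitotic entry, 7 of 10 of the kinetochore and checkpoint and 5 of 6 of the spindle, but in 3 of 12 of G1/S and replication. E2F words ran the other way, in 6 of 12 genes of G1/S and replication, 3 of 9 of mitotic entry and none of the 16 of the kinetochore and spindle. These are matches of letters and not sites of binding.

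In knockout hearts 22 of the 38 members were higher 2 weeks after TAC than after sham surgery and none was lower, by limma's moderated test with Benjamini-Hochberg adjustment over all 26989 genes at an adjusted p under 0.05. Over all genes 7.08% were higher and 5.68% were lower. The median difference of the members was 0.39 on the log2 scale, and that of all genes was -0.03. The called members included 6 of 13 of G1/S and replication, 6 of 9 of mitotic entry and markers of cycling cells, 4 of 10 of the kinetochore, passenger complex and checkpoint, and all 6 of the spindle and cytokinesis. The TAC arrays lay wholly above the sham arrays for 24 of 38 members, against 15.4% of all genes. For 1, Cenpf, they lay wholly below, and the share of all genes that did so was not set beside it.

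**Figure D1:**
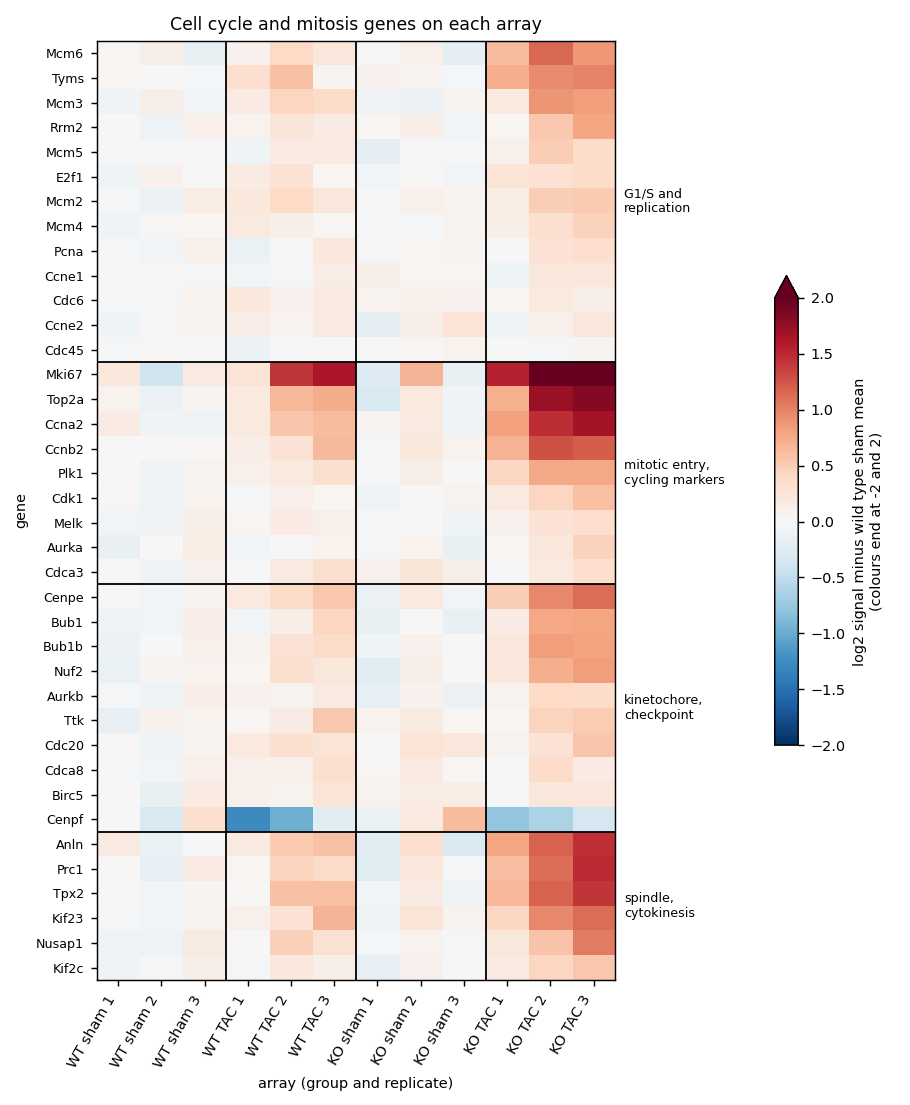
Log2 signal of each of the 38 members (rows, ordered by role and by the TAC difference in knockout hearts) on each of the 12 arrays (columns), as the difference from the mean of the wild type sham arrays. The knockout TAC arrays 2 and 3 are the reddest, replicate 1 is paler, and Cenpf is the row that turns blue after TAC in both genotypes.

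In wild type hearts the same comparison called no member. Of all genes, 0.0667% were called higher. Unadjusted, 8 members were higher at p under 0.05 (6.8% of all genes) and 1, Cenpf, was lower, by the same limma test. How many of all genes were lower at that p was not set beside this count. The TAC difference was positive for 36 of 38 members, where 57.0% of all genes were positive, and all TAC arrays lay above all sham arrays for 14, where 9.03% of all genes did so. The median difference was 0.18, against 0.02 over all genes. Averaged over the genotypes, 19 members were called higher (7.49% of all genes) and 1, Cenpf, was called lower (6.12%).

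The direct comparison of knockout with wild type hearts after TAC called no member either (0.0111% of all genes were called higher), though 18 were higher at an unadjusted p under 0.05 by limma, against 6.88% of all genes, and 0 were lower. The median was 0.29 against -0.04 over all genes, and all knockout arrays lay above all wild type arrays for 9 members, against 7.91% of all genes. The interaction, which tests whether TAC changed a gene by different amounts in the genotypes, called 0 of 38 (0.0% of all genes). By it, 11 members were higher at an unadjusted p under 0.05 by limma (5.05% of all genes), and 31 of 38 were positive (41.2% of all genes). A difference between the genotypes in their response is therefore not shown for any single member at the adjusted threshold. In sham hearts 0 of 38 members were called (0.0% of all genes were called higher) and 0 had an unadjusted p under 0.05 by limma, in either direction, where 2.82% of all genes were higher at that p. For these comparisons the shares of all genes that were lower were not set beside the counts.

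**Figure D2:**
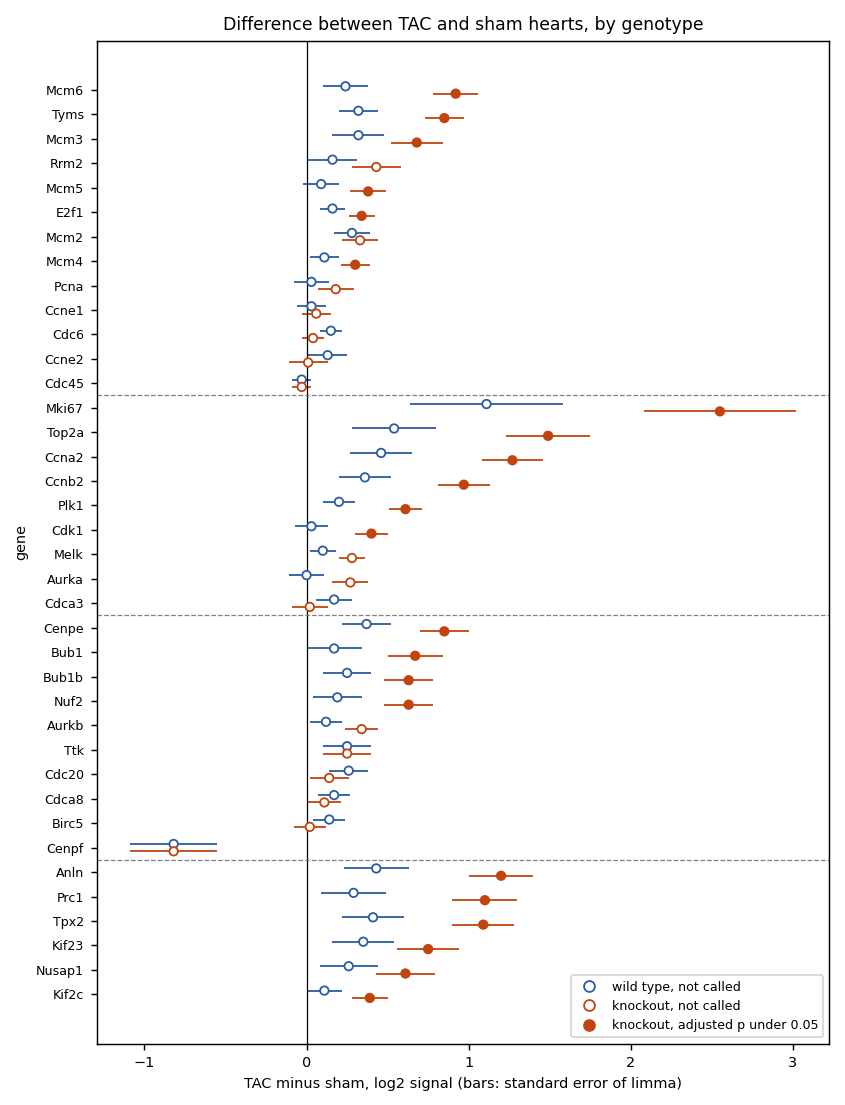
Difference between TAC and sham hearts in log2 signal for each member, in wild type (blue) and knockout (orange) hearts, with the standard error of limma as the bar; filled points passed an adjusted p under 0.05. The filled points are all knockout points, between 0.30 for Mcm4 and 2.55 for Mki67, and the wild type point of Mki67 is at 1.11.

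The replication genes gave the first group. Tyms read 5.97, 5.93 and 5.89 on the wild type sham arrays, 6.27, 6.51 and 5.99 after TAC, 6.02, 5.99 and 5.89 on the knockout sham arrays and 6.66, 6.87 and 6.92 after TAC. All knockout TAC arrays lay above the other 9. It rose by 0.85 ± 0.12 (SE) in knockout hearts, or 1.80-fold, with a limma adjusted p of 0.00095, and the difference in wild type hearts was 0.32 ± 0.12 (adjusted p = 0.290). Mcm6 read 6.24, 6.32 and 6.06 in wild type sham hearts, 6.29, 6.60 and 6.44 after TAC, 6.19, 6.31 and 6.01 in knockout sham hearts and 6.84, 7.35 and 7.08 after TAC. The knockout TAC arrays were the highest of the 12, and the wild type TAC arrays overlapped their sham arrays. Mcm6 rose 1.89-fold in knockout hearts (0.92 ± 0.14, limma adjusted p = 0.00126), and the interaction of 0.68 ± 0.19 had the smallest p of any member (adjusted p = 0.269).

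Mcm3, another subunit of the same helicase, read 5.91, 6.09 and 5.92, then 6.14, 6.40 and 6.35 in the wild type sham and TAC hearts, and 5.91, 5.85 and 6.05, then 6.17, 6.86 and 6.81 in the knockout sham and TAC hearts. The TAC arrays did not overlap the sham arrays in either genotype, and knockout TAC replicate 1 lay among the wild type TAC arrays. It rose in knockout hearts by 0.68 ± 0.16 (limma adjusted p = 0.0154). E2f1, the factor that drives entry into S phase, read 4.56, 4.73 and 4.66, then 4.81, 4.94 and 4.69 in wild type hearts, and 4.60, 4.68 and 4.60, then 4.92, 4.95 and 5.02 in knockout hearts. It rose by 0.34 ± 0.08 in knockout hearts (limma adjusted p = 0.0166). Mcm5 and Mcm4 rose too, by 0.38 and 0.30.

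Mcm2, a further subunit of the helicase, did not pass in either genotype alone. It read 5.48, 5.39 and 5.65, then 5.72, 5.91 and 5.73 in wild type hearts, and 5.50, 5.61 and 5.57, then 5.65, 6.00 and 6.03 in knockout hearts. The TAC arrays lay above the sham arrays in both genotypes, and the TAC difference averaged over the genotypes, 0.30 ± 0.08, was called by limma (adjusted p = 0.0233). Pcna, the sliding clamp of the polymerase, was at 9.22, 9.21 and 9.37, then 9.14, 9.26 and 9.48 in wild type hearts, and at 9.23, 9.30 and 9.32, then 9.26, 9.55 and 9.60 in knockout hearts. Its groups overlapped in both genotypes, and its difference in knockout hearts was 0.18 ± 0.11.

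The cyclins E and the loading factors of origins showed little difference. Ccne1 read 4.69, 4.68 and 4.65, then 4.62, 4.65 and 4.82 in wild type hearts, and 4.79, 4.69 and 4.70, then 4.57, 4.88 and 4.90 in knockout hearts. Ccne2 read 5.82, 5.93 and 5.96, then 6.03, 5.97 and 6.08, and in knockout hearts 5.73, 6.02 and 6.17, then 5.80, 6.00 and 6.13. Neither cyclin E gene moved apart from its sham arrays in knockout hearts, with differences of 0.06 ± 0.09 and 0.01 ± 0.12. Cdc6, which loads the helicase, read 4.22, 4.19 and 4.30, then 4.44, 4.33 and 4.40 in wild type hearts, and 4.30, 4.34 and 4.32, then 4.28, 4.43 and 4.36 in knockout hearts. Cdc45, which activates it, read 6.21, 6.26 and 6.22, then 6.12, 6.24 and 6.22 in wild type hearts, and 6.23, 6.26 and 6.30, then 6.22, 6.20 and 6.29 in knockout hearts, with a difference of -0.03 ± 0.06 in knockout hearts. Rrm2, the ribonucleotide reductase subunit made in S phase, differed by 0.43 ± 0.15 (limma adjusted p = 0.0973). The probe set of Mcm7 read 6.55 to 6.92 in wild type sham, 6.60 to 6.74 in wild type TAC, 6.61 to 6.85 in knockout sham and 6.76 to 6.96 in knockout TAC hearts.

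Mki67, which encodes the Ki-67 protein used to mark cycling cells, had the largest difference of all members. It read 6.38, 5.77 and 6.34 in wild type sham hearts, 6.43, 7.60 and 7.78 after TAC, 5.91, 6.85 and 6.02 in knockout sham hearts and 7.71, 9.30 and 9.42 after TAC. The TAC arrays lay above the sham arrays in both genotypes, but wild type TAC replicate 1 was only just above the sham range, and knockout TAC replicate 1 lay within the range of wild type TAC hearts. In knockout hearts it rose by 2.55 ± 0.47, or 5.84-fold (limma adjusted p = 0.00431). The difference in wild type hearts was 1.11 ± 0.47 (adjusted p = 0.368), and the interaction was 1.44 ± 0.66 (adjusted p = 0.458).

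Top2a read 5.32, 5.13 and 5.30, then 5.45, 5.92 and 5.99 in wild type hearts, and 4.94, 5.44 and 5.17, then 5.96, 6.98 and 7.09 in knockout hearts. It rose 2.81-fold in knockout hearts (1.49 ± 0.26, limma adjusted p = 0.00316), with knockout TAC replicate 1 again the lowest of its group and inside the wild type TAC range. Ccna2, the cyclin A of S phase and early mitosis, read 5.60, 5.36 and 5.36, then 5.63, 6.00 and 6.07, and in knockout hearts 5.49, 5.62 and 5.37, then 6.26, 6.92 and 7.11. Its knockout TAC arrays were the highest of the 12 without overlap. It rose 2.42-fold in knockout hearts (1.27 ± 0.19, limma adjusted p = 0.00143), and knockout hearts were 0.87 ± 0.19 above wild type hearts after TAC (adjusted p = 0.0707).

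Ccnb2 read 4.96, 4.95 and 4.98, then 5.09, 5.25 and 5.61 in wild type hearts, and 4.93, 5.18 and 5.03, then 5.66, 6.23 and 6.17 in knockout hearts, a rise of 0.97 ± 0.16 (limma adjusted p = 0.00209). The kinase gene Plk1, which acts at mitotic entry and in cytokinesis, read 5.03, 4.94 and 5.10, then 5.13, 5.22 and 5.35, and in knockout hearts 4.99, 5.14 and 5.03, then 5.43, 5.78 and 5.79. It rose by 0.61 ± 0.10 (limma adjusted p = 0.00283). For both genes all knockout TAC arrays lay above the other 9. Cdk1, the kinase of mitosis itself, rose by only 0.40 ± 0.10 (limma adjusted p = 0.0244), from a mean of 4.53 in sham hearts of both genotypes. Melk, a kinase of cycling cells, and Aurka differed by 0.28 and 0.27 and did not pass, with limma adjusted p of 0.0508 and 0.154. Aurkb, the kinase of the passenger complex, differed by 0.34 ± 0.10 and did not pass either (limma adjusted p = 0.0552). Its knockout TAC and sham arrays overlapped. With the replicate numbers of the labels as a block, limma gave an adjusted p of 0.0447 for Melk and 0.0397 for Aurkb. Cdca3, a gene of mitotic entry, read 3.64, 3.55 and 3.73, then 3.64, 3.82 and 3.96 in wild type hearts, and 3.72, 3.88 and 3.75, then 3.60, 3.83 and 3.97 in knockout hearts.

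The probe set that holds Foxm1, the factor that switches on mitotic genes in late G2, also carries 4933413G19Rik. It read 4.36, 4.42 and 4.52, then 4.36, 4.61 and 4.51 in wild type hearts, and 4.39, 4.47 and 4.41, then 4.56, 4.78 and 4.79 in knockout hearts. The knockout TAC arrays lay above their sham arrays, yet the difference of 0.28 ± 0.10 had an adjusted p of 0.124 in limma's fit of all probe sets.

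**Figure D3:**
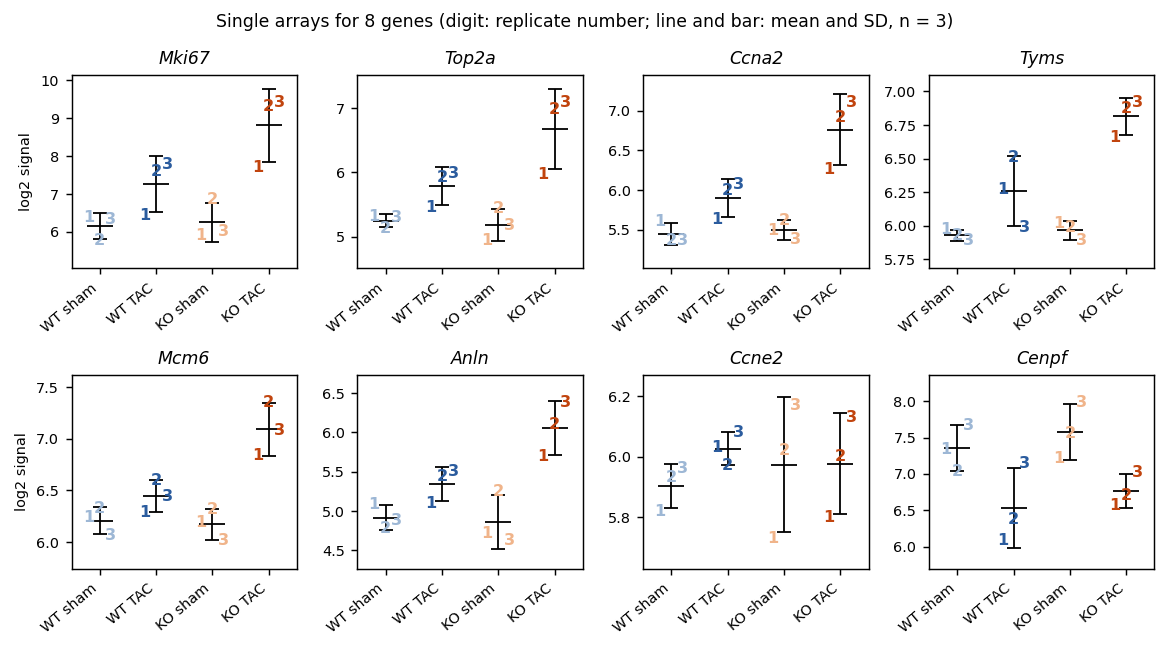
Log2 signal of 8 members on single arrays, with replicate numbers as the points, the mean as the line and the SD over 3 arrays as the bar; each panel has its own vertical scale. Knockout TAC arrays are the highest for Ccna2, Tyms, Mcm6 and Anln, Mki67 and Top2a overlap the wild type TAC arrays at replicate 1, Ccne2 separates from sham narrowly in wild type and not in knockout hearts, and Cenpf has lower means after TAC in both genotypes.

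At the kinetochore, Cenpe, a motor that lines chromosomes up, read 4.55, 4.49 and 4.61, then 4.74, 4.94 and 5.09 in wild type hearts, and 4.44, 4.74 and 4.50, then 5.04, 5.51 and 5.67 in knockout hearts. It rose by 0.85 ± 0.15 in knockout hearts (limma adjusted p = 0.00356). The checkpoint gene Bub1b read 4.47, 4.59 and 4.68, then 4.65, 4.87 and 4.97, and in knockout hearts 4.49, 4.67 and 4.57, then 4.81, 5.42 and 5.39. Nuf2, of the complex that grips microtubules, read 4.46, 4.64 and 4.66, then 4.62, 4.90 and 4.82, and in knockout hearts 4.38, 4.71 and 4.59, then 4.80, 5.32 and 5.43. Both rose by 0.63 ± 0.15 in knockout hearts, and for both replicate 1 of the TAC group stood well below the other 2 arrays. The checkpoint kinase gene Bub1 rose by 0.67.

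Not every gene of this group was called higher in knockout hearts. Cdc20, the activator of the anaphase-promoting complex, read 4.06, 3.94 and 4.10, then 4.23, 4.36 and 4.29 in wild type hearts, and 4.04, 4.30 and 4.26, then 4.10, 4.32 and 4.59 in knockout hearts. Its wild type arrays separated, but its knockout arrays overlapped, with a difference of 0.14 ± 0.12. Birc5 and Cdca8, which work with Aurkb in the passenger complex, differed by 0.02 and 0.11 in knockout hearts and by 0.14 and 0.17 in wild type hearts. Birc5 read 3.69 to 4.10 and Cdca8 4.70 to 5.14 over the 12 arrays. Ttk, a checkpoint kinase, differed by 0.25 in both genotypes. The mean signals of Cdc20, Birc5, Cdca8 and Ttk over all arrays were 4.22, 3.94, 4.86 and 4.34. Over all tested members the median level was 5.32 for those called higher in knockout hearts and 4.79 for the others. The part of low signal in the missing calls was not tested.

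Cenpf, a large kinetochore protein of G2 and mitosis, ran the other way. It read 7.34, 7.04 and 7.67, then 6.08, 6.37 and 7.14 in wild type hearts, and 7.21, 7.55 and 7.98, then 6.56, 6.71 and 7.02 in knockout hearts. The TAC arrays lay below the sham arrays in knockout hearts, and in wild type hearts replicate 3 after TAC reached into the sham range. The difference was -0.82 ± 0.27 in each genotype, with limma adjusted p of 0.241 in wild type and 0.0758 in knockout hearts, and 0.00449 in knockout hearts with the replicate numbers as a block. Averaged over the genotypes, Cenpf fell by 0.82 on the log2 scale (limma adjusted p = 0.0151). Within each group replicate 3 was the highest. Its promoter held a CHR word and 2 CCAAT boxes, like many members that rose.

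All 6 tested genes of the spindle and of cytokinesis were higher in knockout hearts after TAC. Anln, a scaffold of the contractile ring, read 5.09, 4.78 and 4.88, then 5.10, 5.44 and 5.50 in wild type hearts, and 4.71, 5.25 and 4.62, then 5.70, 6.10 and 6.38 in knockout hearts. It rose 2.30-fold in knockout hearts (1.20 ± 0.20, limma adjusted p = 0.00225). Tpx2, which activates Aurka on the spindle, read 5.50, 5.45 and 5.56, then 5.52, 6.09 and 6.11, and in knockout hearts 5.45, 5.66 and 5.41, then 6.17, 6.69 and 6.93. Prc1, which bundles microtubules at the midzone, read 5.08, 4.93 and 5.25, then 5.12, 5.53 and 5.47, and in knockout hearts 4.84, 5.29 and 5.07, then 5.71, 6.21 and 6.58. Tpx2 rose by 1.09 ± 0.19 and Prc1 by 1.10 ± 0.20 in knockout hearts (limma adjusted p = 0.00321 and 0.00421). For these 3 genes all knockout TAC arrays lay above the other 9 arrays, which held for 9 of the 38 members (the others were Ccna2, Ccnb2, Cdk1, Plk1, Tyms and Mcm6) and for 5.59% of all genes. The motors Kif23 and Kif2c and the spindle protein Nusap1 rose by 0.75, 0.39 and 0.61.

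The count of 22 changed when single arrays were left out. It fell to 11 when replicate 1 of the knockout sham group, or replicate 2 or 3 of the knockout TAC group, was left out. Without replicate 3 of the knockout sham group it was 13, and without replicate 1 of the knockout TAC group 26. The share of all genes called was not set beside these counts, and whether the changes were particular to the members was not tested. The 11 members called whichever array was left out were Mki67, Top2a, Ccna2, Ccnb2, Plk1, Cenpe, Prc1, Tpx2, Tyms, Mcm6 and Anln. Knockout TAC replicate 1 was the lowest of its group for 37 of 38 members, and wild type TAC replicate 1 for 31. With genes dimmer than the median of all genes left out, 11 of the 15 members that remained were called higher (16.5% of all genes then tested) and 1, Cenpf, was called lower (13.7% of them), with a limma adjusted p of 0.0448 for Cenpf.

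A CHR word was about as frequent among the members called in knockout hearts as among the others. Of the members called in knockout hearts with a promoter entry 11 of 19 held one, and of the other tested members 8 of 14. The median TAC difference in knockout hearts was 0.40 both with a CHR word (19 genes) and without one (14 genes). The differences ran from -0.82 to 2.55 with the word and from 0.02 to 0.92 without it, as a description with no test. CHR words were rarer in the G1/S and replication genes. Each role held genes with and without the word, but they were not compared within roles, so the part of the role was not tested.

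Markers of several cell types were read in the same hearts. In knockout hearts after TAC 7 of 7 markers of activated fibroblasts were called higher, such as Postn and Tnc, as were 9 of 11 of fibroblasts and 8 of 13 of macrophages and monocytes (1 was lower, Timd4, of resident macrophages). Of endothelial markers 2 of 9 were called higher, of neutrophil markers 1 of 7 and of T and NK cell markers 0 of 8. Of 9 cardiomyocyte markers 1 was called higher and 3 lower, all by limma. Of all genes, 7.08% were called higher after TAC in knockout hearts and 5.68% lower. Between knockout and wild type hearts after TAC none of these lists had a called gene (0.0111% of all genes were called higher). At an unadjusted p under 0.05 by limma, 7 of 7, 8 of 11 and 7 of 13 markers of the first 3 lists were higher (6.88% of all genes). By the same measure 1 of the 13 was lower, with no share of all genes set beside it. The order of the arrays was not the same in these lists and in the members. Over the 38 members the mean log2 signal was 5.20, 5.41 and 5.47 in wild type TAC hearts and 5.41, 5.82 and 5.91 in knockout TAC hearts, against 5.09 to 5.28 in all sham hearts. The activated fibroblast markers read 8.92, 10.17 and 7.97 in wild type TAC and 10.74, 10.96 and 10.64 in knockout TAC hearts, against 7.54 to 7.77 in sham hearts. Wild type TAC replicate 3 thus had the highest mean of its group over the members and the lowest over these markers. The macrophage and monocyte markers read 9.03, 8.76 and 8.88, then 9.31, 9.59 and 8.95, and knockout TAC replicate 3, the highest over the members, was the lowest of its group there. The part of these cell types in the differences was not tested.

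**Figure D4:**
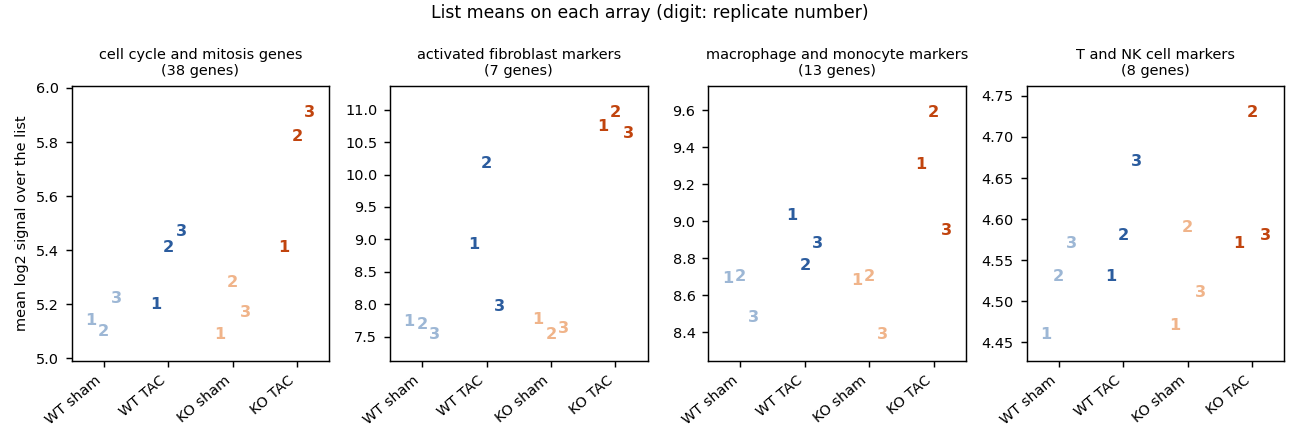
Mean log2 signal over the 38 members and over 3 lists of cell type markers on each array, with replicate numbers as the points; each panel has its own vertical scale. The knockout TAC arrays are the highest for the activated fibroblast markers, at 10.64 to 10.96, while for the members knockout TAC replicate 1 is at the level of wild type TAC replicate 2.

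Atrial genes differed widely between arrays of all groups. The mean over 6 atrial markers was 13.41, 12.25 and 10.56 in wild type sham, 10.01, 11.62 and 12.53 in wild type TAC, 10.78, 13.42 and 10.48 in knockout sham and 13.41, 11.88 and 10.51 in knockout TAC hearts. The arrays with the highest atrial mean in the knockout groups were sham replicate 2, the highest of its group for 28 members, and TAC replicate 1, the lowest for 37. In wild type TAC hearts the atrial mean rose from replicate 1, the lowest for 31 members, to replicate 3, the highest for 22. In wild type sham hearts replicate 1 had the highest atrial mean and was the highest for 7 members. The part of atrial tissue in the members' values was not tested.

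Genes of the cycle outside the 44 were read from lists by role. Of 45 further mitosis genes tested, 15 were called higher in knockout hearts after TAC and 2 lower by limma, against 7.08% and 5.68% of all genes. Smc4, a condensin subunit, rose by 0.89, and Ckap2, a spindle protein, by 1.23. Pttg1, which encodes securin, fell by 0.72, and Sgo2a, a guardian of cohesin, fell by 0.51. Pttg1 read 8.83, 8.67 and 8.73 in knockout sham and 8.12, 7.88 and 8.06 in knockout TAC hearts, and 8.36 to 8.63 and 8.33 to 8.67 in the wild type groups. Cenpf was thus not the only gene of mitosis below its sham level.

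Of 31 further replication genes tested, 2 were called higher in knockout hearts after TAC, the primase subunit Prim2 (0.58) and the polymerase subunit Pole2 (0.31), and 2 lower, the licensing inhibitor Gmnn (-0.63) and the dUTPase Dut (-0.29), all by limma, which is near the shares over all genes of 7.08% higher and 5.68% lower. Of 17 genes of DNA damage and repair, 2 were called higher and 0 lower, against 7.08% and 5.68% of all genes. Atad2 and H2ax rose by 0.75 and 0.61. Of 12 cyclins and kinases of G1 and their regulators 4 were called higher (7.08% of all genes) and 1 lower (5.68%). Ccnd2, the cyclin D2 that answers to growth signals, read 12.33, 12.40 and 12.34 in knockout sham and 13.14, 13.25 and 13.69 in knockout TAC hearts, and 12.39, 12.23 and 12.18, then 12.93, 13.58 and 12.91 in wild type hearts. The TAC arrays of both genotypes lay above all sham arrays, with differences of 1.01 in knockout and 0.87 in wild type hearts (limma adjusted p = 0.00349 and 0.0830). Myc rose by 0.78 in knockout hearts, and Ccnh, the cyclin of the Cdk-activating kinase, fell by 0.59.

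Among 19 inhibitors and pocket proteins, 4 were called higher and 3 lower in knockout hearts after TAC by limma, against 7.08% and 5.68% of all genes. Btg2, an antiproliferative gene, rose by 0.70, while Rbl2, the p130 pocket protein of DREAM, fell by 0.48 and Meis1, a factor that restrains cardiomyocyte division, fell by 0.38. Of 17 E2F, DREAM and MuvB factors 2 were called higher and 3 lower, where the same shares hold over all genes. Tfdp2, a partner of E2F proteins, read 11.22, 11.18 and 11.04 in knockout sham and 10.15, 9.62 and 10.06 in knockout TAC hearts. It fell by 1.20, and Nfyc, a subunit of the factor that binds CCAAT boxes, fell by 0.58. E2f3, an activating E2F, rose by 0.49 and Mybl1, a relative of B-Myb, by 0.58.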

How the data were processed

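Total RNA of 12 hearts was labelled and hybridised to Clariom D arrays by the authors. The deposited values were log2 signals per probe set, made with Affymetrix Expression Console per the submitters' processing notes (the sources used here do not give their normalization or summarization). That they are log2 was taken from their range (1.27 to 19.93). Normalization bears on every difference, and so quantile normalization and median centring were tried as alternatives.

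Control probe sets (6732 of 65527) were left out. Of the rest, 27268 carried 1 gene symbol, 1932 several and 29595 none in the platform's annotation, and 757 symbols were updated by gene ID through RefSeq. Each gene was the brightest probe set with 1 symbol (26989 genes, 198 with more than 1), with no filter on dim genes. Groups were compared in R 4.3.3 by limma 3.58.1, whose model held a mean for each group, over all 12 arrays (residual degrees of freedom 8, prior 3.29), 2-sided, with Benjamini-Hochberg adjustment over all genes and calls at an adjusted p under 0.05. Errors of differences are limma's standard errors, errors of levels are SD (n = 3). The fit was tested on simulated data. The number of arrays limits the precision. The labels call the hearts of a group biological replicates.

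Replicate numbers were checked as a pairing. Residuals of knockout sham and TAC arrays with the same number correlated at 0.143 to 0.254, so the block is given beside results of that comparison where it changed a call; the labels do not say what a number marks.

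The members and the lists were chosen with earlier results of these data known. Values on every array are given for Mki67, Top2a, Ccna2, Ccne1, Ccne2, Mcm2, Pcna, Foxm1 and E2f1 whatever their values, and for the 3 members with the smallest p per role for TAC in knockout hearts, the 3 with the smallest p in each other comparison between 2 groups and in the interaction, and those negative in knockout hearts. From the other cycle lists the genes with the smallest p were named, except 1 that is not reported here. Promoters come from RefSeq, GRCm38.p6.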

Additional observations from a re-analysis of the deposited data

How the results depend on the processing

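Counts of called members moved with the filter on dim genes, with single arrays and with the replicate block. Without dim genes fewer genes were tested, 15 of the 38 members. For TAC in knockout hearts 12 members were then called, 11 higher and 1 lower (16.5% and 13.7% of all genes then tested). Their median difference was 0.748, against 0.395. For TAC averaged over the genotypes 12 were called, 11 higher and 1 lower (17.2% and 14.3% of all genes), with a median of 0.55, against 0.271. For knockout against wild type after TAC 3 were called, all higher, namely Ccna2, Mcm6 and Tyms (median 0.479, against 0.286). Of all genes then tested 3.44% were called higher in that comparison and 1.13% lower. Leaving out 1 array gave 11 to 26 calls for TAC in knockout hearts and 0 to 2 for knockout against wild type after TAC (Mcm6 and Tyms without wild type TAC replicate 2). With the replicate numbers as a block 1 member was called for TAC in wild type hearts (Cenpf) and 6 for knockout against wild type after TAC (Ccna2, Ccnb2, Mcm6, Plk1, Prc1 and Tyms); same-number correlations there fell to -0.016 and 0.083, 9 of 12 arrays correlated best with their own number. The block changed no call of TAC in knockout hearts beyond Aurkb, Melk and Cenpf. For TAC in knockout hearts the count was 23 after quantile normalization, 25 after centring, 27 with array weights, 17 over all probe sets and 15 with only the groups compared. The share of all genes called was not set beside these counts, nor beside those with 1 array left out or with the block.

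Differences near 0 changed sign, none of them called. Ccne1 in wild type hearts was at -0.00114 with array weights and -0.03 without TAC replicate 3, and in knockout hearts at -0.00128 without TAC replicate 3. Pcna in wild type hearts was at -0.00126 without sham replicate 2 and -0.07 without TAC replicate 3. Ccne2 in knockout hearts was at -0.01 after quantile normalization or with array weights, and at -0.12, -0.00472 and -0.07 without sham replicate 1, TAC replicate 2 and TAC replicate 3. With 1 array left out, the highest values of these 4 were 0.07, 0.16, 0.11 and 0.10 (Ccne1 in wild type and knockout hearts, Pcna, Ccne2). Cdc45 in knockout hearts was at 0.01 after centring. The cause was not tested. A fit of only the groups compared gives no separate value for the averaged comparison and the interaction. Of the 38 members 23 lie below the median signal of all genes, and whether low signal understates their differences was not tested.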
